A study of Mus musculus with 6 samples.

Results

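The genes described here are Cyp2b9, Cyp2b10 and Cyp2b13, the 3 members of the mouse cytochrome P450 subfamily 2B that were picked out because earlier results of these arrays were known. They were found by gene symbol in the platform annotation, where each had 1 probe (a transcript cluster of the array) with that symbol alone and none shared with another symbol, and they are 3 of 22180 genes that had such a probe. Their difference between the groups was part of that choice, so it is given as a description and not tested. Liver was taken from male C57BL/6 mice, 8 weeks old before acclimatization. A group of 3 mouse liver samples came from mice given Vascepa for 7 days and then fed a high-fat diet for 6 weeks, while 3 further samples came from vehicle-treated mice (7 days) kept on that diet for the same 6 weeks. Vascepa is a drug made of icosapent ethyl, an ester of eicosapentaenoic acid, one of the fish oil fatty acids. The comparison sets Cyp2b levels in livers dosed before the diet against those given vehicle before it. All 6 samples had the diet, no group without it was analysed here, and the labels give no dose. The labels do not state whether each sample is a separate animal, so the spread within a group may be technical.

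CYP2B enzymes sit in the endoplasmic reticulum of hepatocytes and oxidise drugs, steroids and fatty acids, taking electrons from cytochrome P450 reductase. Cyp2b10 is the classic target of the nuclear receptor CAR in mouse liver and is strongly induced by phenobarbital, with a part played by the related receptor PXR. Cyp2b9 and Cyp2b13 are genes of female mouse liver, and in males the pattern of growth hormone pulses, acting through STAT5, keeps them lower than in females. No female livers were analysed here, and in these male livers Cyp2b9 was bright, with a mean of 10.06 in the vehicle group. The 3 genes lie in 1 cluster on chromosome 7 together with pseudogenes of the subfamily and with Cyp2b23, Cyp2b19 and several Cyp2a genes.

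The start regions of Cyp2b9 and Cyp2b13 are shown because these members lay in the same direction below, and that of Cyp2b10 because it did not. The RefSeq promoter table (build GRCm38.p6) held all 5 protein-coding Cyp2b genes. The 250 bases before the annotated start are printed 5′ to 3′ for Cyp2b9 (chr7:26173159-26173408, plus strand), Cyp2b13 (chr7:26061245-26061494, plus strand) and Cyp2b10 (chr7:25897408-25897657, plus strand). Capitals in Cyp2b9 and Cyp2b13 mark the bases at which these 2 genes differ, and capitals in Cyp2b10 mark matches to TTGCNNAA and CATAAA.
Cyp2b9: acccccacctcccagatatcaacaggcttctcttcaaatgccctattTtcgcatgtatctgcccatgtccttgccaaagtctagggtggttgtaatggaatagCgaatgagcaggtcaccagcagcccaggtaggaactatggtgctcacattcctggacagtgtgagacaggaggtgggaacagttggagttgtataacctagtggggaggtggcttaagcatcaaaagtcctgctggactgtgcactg
Cyp2b13: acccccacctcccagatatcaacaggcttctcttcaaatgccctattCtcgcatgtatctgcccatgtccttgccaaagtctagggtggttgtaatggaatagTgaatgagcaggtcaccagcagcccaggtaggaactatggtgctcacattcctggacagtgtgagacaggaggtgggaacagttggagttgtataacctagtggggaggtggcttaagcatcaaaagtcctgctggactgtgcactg
Cyp2b10: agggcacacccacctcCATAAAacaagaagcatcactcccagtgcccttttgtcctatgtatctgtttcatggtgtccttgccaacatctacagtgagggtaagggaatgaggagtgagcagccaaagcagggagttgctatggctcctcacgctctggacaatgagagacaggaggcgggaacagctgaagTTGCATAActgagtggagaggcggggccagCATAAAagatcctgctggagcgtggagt

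The windows of Cyp2b9 and Cyp2b13 were identical at 248 of 250 bases. They differed by T48C and C104T, written from Cyp2b9 to Cyp2b13 with positions counted from the 5′ end of the window. The 50 bases after the start held no further difference. Aligned with gaps, the window of Cyp2b9 matched that of Cyp2b10 at 186 bases, 71.0% of the alignment, and that of Cyp2b19 and Cyp2b23 at 65.1% and 65.0%. The array reads RNA and not these windows, and its probe sequences were not used here, so how far RNA of Cyp2b9 and Cyp2b13 binds each other's probes was not tested.

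Short motifs, chosen after the sequences were seen, were searched on both strands of these windows and of all 32851 windows of the table. AGGTCA, the hexamer that many nuclear receptors bind, was present in Cyp2b9 and Cyp2b13 from 138 bases before the start, and in Cyp2b19 and Cyp2b23, and these letters are not in the Cyp2b10 window. Of all windows 14.0% held it. A direct repeat of AGGTCA with 4 bases between the copies, a form that CAR binds, was in none of the 5 windows and in 0.0152% of all windows, and the known phenobarbital-responsive enhancer of Cyp2b10 lies farther upstream than the bases shown. TTGCNNAA, a form of the C/EBP site, was present in Cyp2b10 as TTGCATAA from 58 bases before the start, and in Cyp2b19 and Cyp2b23 with the same letters. At the aligned place Cyp2b9 and Cyp2b13 carried C4T, counted from the first base of that motif and written from Cyp2b10, and their own match to TTGCNNAA lay from 180 bases before the start. Of all windows 9.56% held TTGCNNAA. CATAAA was in the windows of Cyp2b10, Cyp2b19 and Cyp2b23 and not in those of Cyp2b9 and Cyp2b13, with a share of 10.8% over all windows. TTCNNNGAA, the letters of a STAT5 site, ATCAAT, of an HNF6 site, and TATAAA were in none of the 5 windows, against 7.02%, 6.72% and 12.4% of all windows. A match is only a run of letters.

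Cyp2b9 and Cyp2b13 were lower on every Vascepa array than on any vehicle array, and Cyp2b10 was uneven within both groups. Levels are log2 values made with RMA, a method that corrects the background, brings the arrays to a common distribution and combines the probes of a transcript. Of 3 members, 2 had all Vascepa arrays below all vehicle arrays. Among all 13493 genes tested 5.11% lay this way and 3.13% lay the opposite way, and since the members were chosen on this contrast nothing is read from their count. Tested genes are those whose mean over the 6 arrays reached 2.65, the median of all probes. In bulk liver, fewer cells that use a gene and less of its RNA per cell cannot be told apart.

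Cyp2b9 (gene ID 13094, probe 17475385) read 7.68, 8.57 and 9.20 on Vascepa replicates 1, 2 and 3, against 10.09, 10.01 and 10.07 on the vehicle arrays. The vehicle arrays lay within 0.080 of each other, the Vascepa arrays were spread over 1.52, and a gap of 0.82 separated the groups. Cyp2b9 averaged 8.48 ± 0.76 in Vascepa livers and 10.06 ± 0.042 in vehicle livers (SD, n = 3 each), which is 2.99-fold lower (log2 difference −1.58 ± 0.35, limma's moderated standard error, SE). The Vascepa arrays differed among themselves in how far they lay below the vehicle mean. Vascepa replicate 1 lay 5.21-fold below it, Vascepa replicate 2 lay 2.81-fold below and Vascepa replicate 3 lay 1.82-fold below. Of the tested genes, 8.03% had a larger SD than Cyp2b9 within the Vascepa group and 96.7% had a larger SD within the vehicle group.

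Cyp2b13 (gene ID 13089, probe 17475373) read 2.58, 3.58 and 3.11 on the Vascepa arrays, against 4.61, 5.47 and 4.81 on the vehicle arrays. The groups did not overlap and lay 1.03 apart at their nearest. Cyp2b13 averaged 3.09 ± 0.50 in Vascepa livers and 4.96 ± 0.45 in vehicle livers (SD, n = 3 each), 3.66-fold lower (log2 difference −1.87 ± 0.32, SE). It had the lowest difference of all 13493 tested genes and Cyp2b9 the third lowest, at position 3. Cyp2b13 was dim in Vascepa livers, with replicate 1 under the filter level of 2.65, and its mean over the 6 arrays was 4.03. No detection calls were used here, so whether its Vascepa values were above background was not tested, and RMA compresses differences at the dim end.

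Cyp2b10 did not share this pattern. The gene (ID 13088, probe 17475360) read 5.07, 3.60 and 2.78 on the Vascepa arrays, against 2.41, 4.38 and 3.49 on the vehicle arrays, so the highest and the lowest of the 6 values were Vascepa replicate 1 and vehicle replicate 1. The groups overlapped over most of their range. Cyp2b10 averaged 3.82 ± 1.16 in Vascepa livers and 3.43 ± 0.99 in vehicle livers (SD, n = 3 each), with a log2 difference of 0.39 ± 0.65 (SE). It was among the most uneven genes within groups, since 0.823% of tested genes had a larger SD in the Vascepa group and 0.156% had a larger SD in the vehicle group. The sign of its difference rested on single arrays, at −0.24 without Vascepa replicate 1 and −0.12 without vehicle replicate 1. Vascepa replicate 1 was the array with the highest Cyp2b10 and the lowest Cyp2b9 and Cyp2b13.

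**Figure D1:**
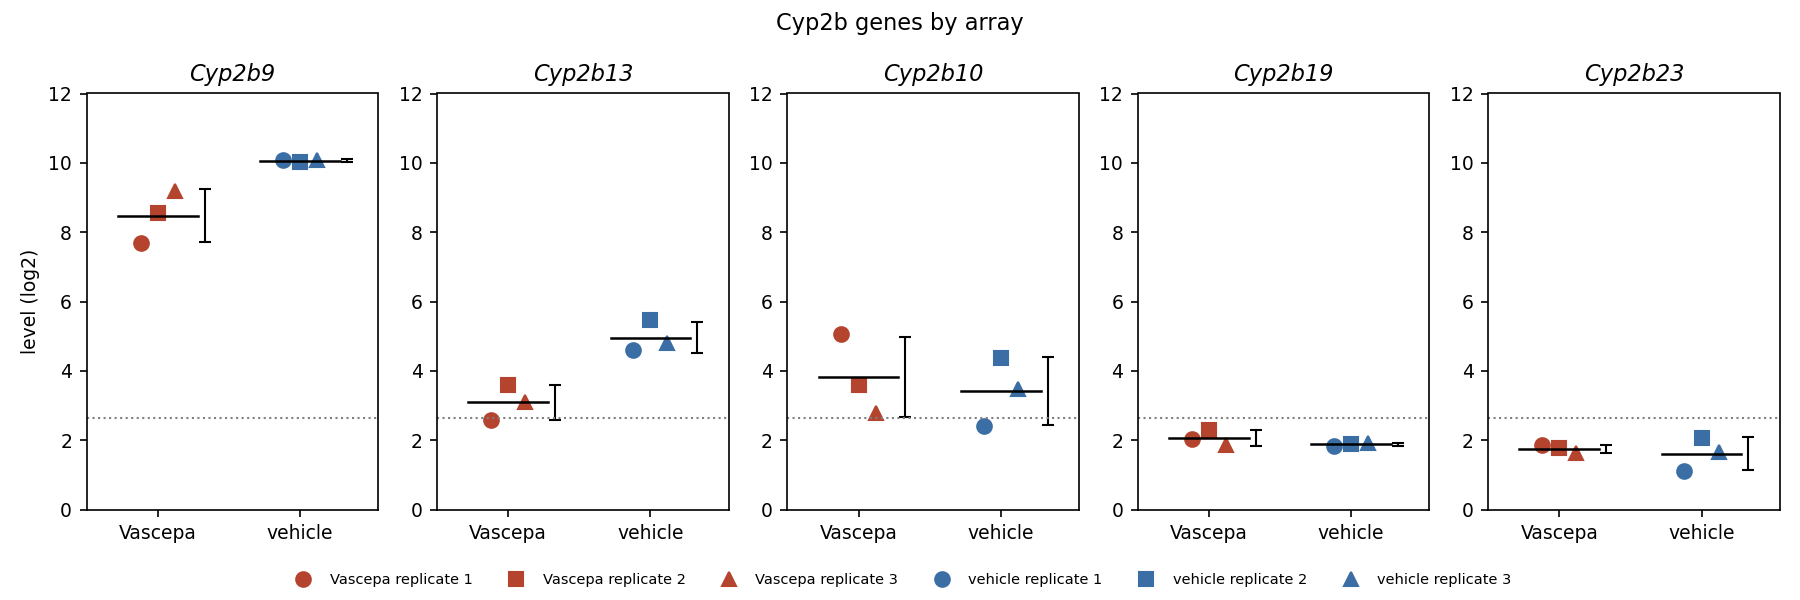
Levels of the 5 protein-coding Cyp2b genes, on the log2 scale (y axis), in Vascepa (left, red) and vehicle (right, blue) livers. Symbols are single arrays, horizontal lines the group means, bars beside them the SD (n = 3), and the dotted line the filter level of 2.65. Cyp2b9 and Cyp2b13 do not overlap between groups, Cyp2b10 does, and Cyp2b19 and Cyp2b23 lie under the filter level on all arrays.

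The other Cyp2b genes with a probe were dim and were not tested. Cyp2b19, a fatty acid epoxygenase best known from skin keratinocytes, read 2.04, 2.30 and 1.85 on the Vascepa arrays, against 1.85, 1.88 and 1.93 on the vehicle arrays. Cyp2b23 read 1.86, 1.77 and 1.62 on the Vascepa arrays, against 1.12, 2.06 and 1.66 on the vehicle arrays. Both stayed under the filter level on all 6 arrays, with groups that overlapped. The pseudogenes Cyp2b26-ps, Cyp2b27-ps and Cyp2b28-ps were not analysed here.

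**Figure D2:**
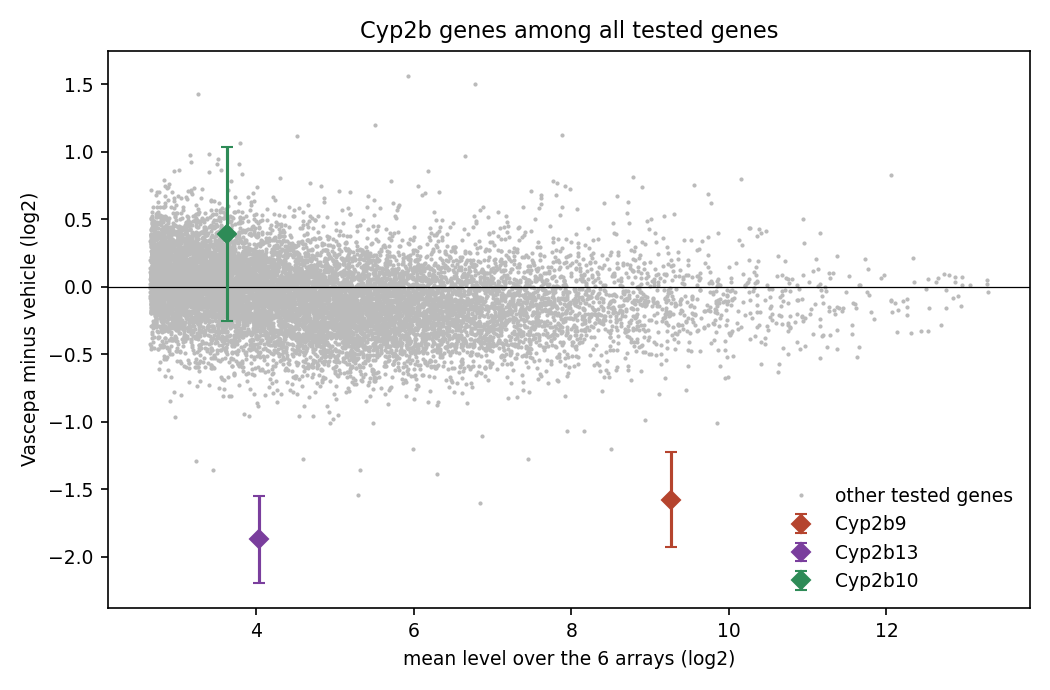
Difference of Vascepa minus vehicle livers (y axis, log2) against the mean level over the 6 arrays (x axis, log2) for the 13493 tested genes (grey points). Diamonds with bars (limma's SE) are the Cyp2b genes. Cyp2b13 at −1.87 is the lowest point, Cyp2b9 at −1.58 lies low among bright genes, and Cyp2b10 at 0.39 lies within the cloud of dim genes.

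No gene of the array passed the test of Vascepa against vehicle. By limma, 0 of 13493 genes were called lower (0%) and 0 higher (0%) at an adjusted p under 0.05, and 221 were lower and 141 higher at an unadjusted p under 0.05. The median difference of all tested genes was −0.063, with 60.1% lower. Brighter genes lay lower as a whole. Over the 7211 genes whose mean reached 4.34, the 75th percentile of all probes, the median difference was −0.14. The medians of gene lists below are to be read beside that value too. Albumin (Alb), a defining product of hepatocytes, read between 13.18 and 13.33 on the Vascepa arrays and between 13.30 and 13.32 on the vehicle arrays, and Cyp2e1, a hepatocyte P450, read between 12.66 and 13.02 on the Vascepa arrays and between 12.98 and 13.09 on the vehicle arrays. The array least like the rest was Vascepa replicate 3, whose r with them across genes averaged 0.938, against 0.959 to 0.973 for each of the others.

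The difference of Cyp2b9 and Cyp2b13 kept its sign in each of 11 alternative settings, which included leaving out each array. Since their groups did not overlap, leaving out an array could not turn the sign, and the replicate block cannot change the difference. Those settings bear only on the size of the difference or its SE. Cyp2b9 lay between −1.94 without Vascepa replicate 3 and −1.18 without Vascepa replicate 1. Cyp2b13 lay between −2.12 without Vascepa replicate 2 and −1.29 with array quality weights. Small nucleolar RNAs (68 genes) were uneven within both groups, with mean levels of 5.67, 6.82 and 7.36 on Vascepa replicates 1, 2 and 3, against 5.80, 6.69 and 6.06 on the vehicle arrays. Among Vascepa arrays Cyp2b9 was higher where these RNAs were higher, and among vehicle arrays it was flat. With their mean as a covariate the difference was −1.87 ± 0.22 in Cyp2b9, −2.10 ± 0.23 in Cyp2b13 and 0.65 ± 0.56 in Cyp2b10 (SE).

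**Figure D3:**
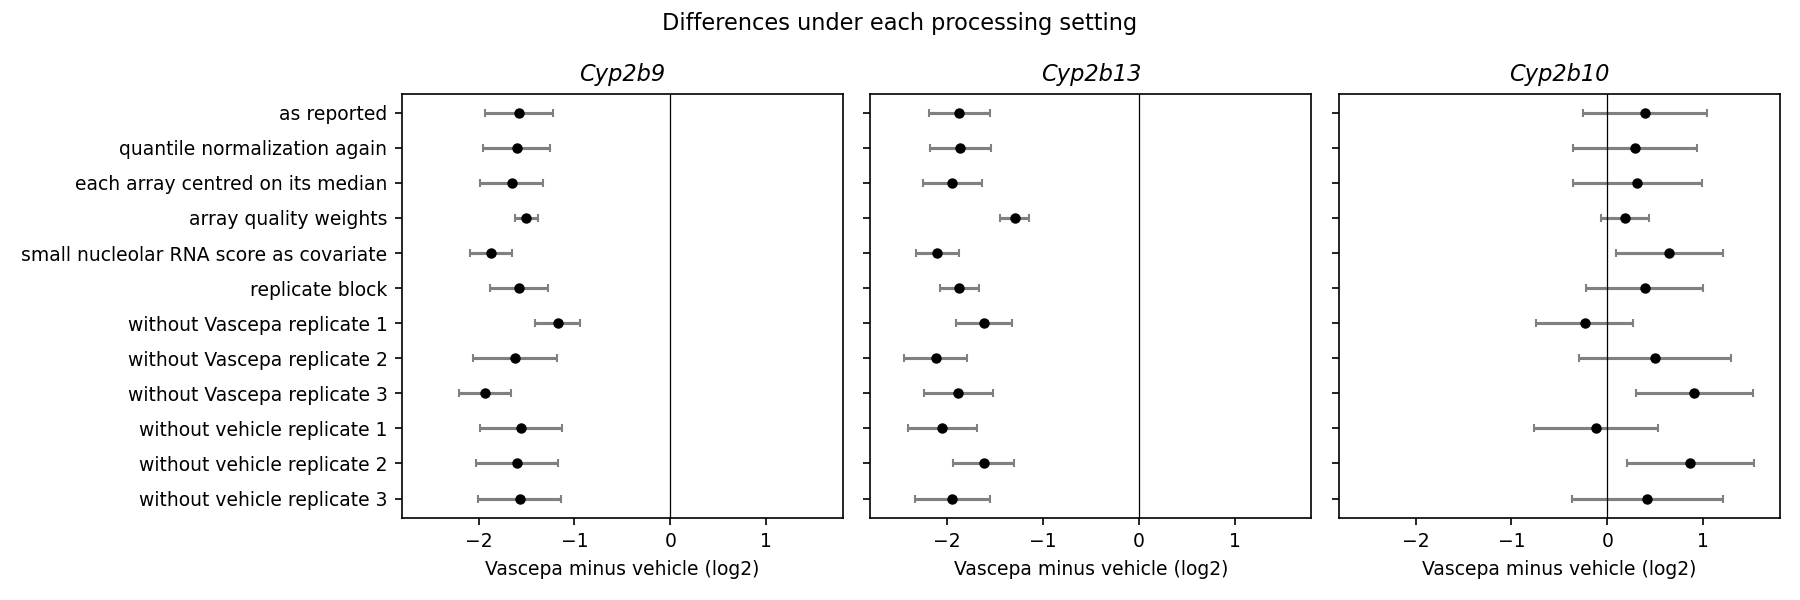
Difference of Vascepa minus vehicle livers (x axis, log2) for Cyp2b9, Cyp2b13 and Cyp2b10 as reported and under 11 alternative settings (rows). Points are estimates and bars limma's SE. All points of Cyp2b9 and Cyp2b13 lie below 0, and those of Cyp2b10 lie between −0.24 and 0.91.

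Across the 6 arrays Cyp2b9 and Cyp2b13 correlated at Pearson's r = 0.88 (Spearman's rho 0.71). The points share the difference between groups that chose both genes, so this is a description. Their order within groups was not the same, since Cyp2b9 was highest of the Vascepa arrays on replicate 3 and Cyp2b13 on replicate 2. Cyp2b10 correlated with Cyp2b9 at r = −0.57 (rho −0.71) and with Cyp2b13 at r = −0.19 (rho −0.14), each over the same 6 arrays.

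The genes with the pattern most like each member were taken by Pearson's r over the 6 arrays among 6451 genes whose SD over the arrays was at least 0.3. For Cyp2b9 they were Ccl2, a chemokine that recruits monocytes (r = 0.98, rho 0.83), Rdh16, a retinol and steroid dehydrogenase of hepatocytes (r = 0.97, rho 0.77), Cyp2c38, a further P450 (r = 0.95, rho 0.94), and Adgre4, an adhesion receptor of myeloid cells (r = 0.95, rho 1.0). Ccl2 read 2.03, 2.40 and 3.02 on the Vascepa arrays, against 3.22, 3.32 and 3.46 on the vehicle arrays. Rdh16 read 6.43, 6.81 and 7.29 on the Vascepa arrays, against 7.42, 7.62 and 7.50 on the vehicle arrays. In Ccl2 and Rdh16, as in Cyp2b9, Vascepa replicate 1 was the lowest of all arrays and the groups did not overlap, as in 5.11% of all tested genes. Ccl2 was dim, with a Vascepa mean of 2.48, under the filter level of 2.65, and a vehicle mean of 3.33. Genes picked by r share the pattern of their member through that choice, here and for Cyp2b13 and Cyp2b10 below.

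For Cyp2b13 the closest genes were Lhfp (r = 0.96, rho 1.0), Il1rn, the antagonist of the interleukin-1 receptor (r = 0.96, rho 0.94), Dcdc2b (r = 0.94, rho 0.94) and Atpaf2, an assembly factor of ATP synthase (r = 0.94, rho 0.94). Il1rn read 3.53, 3.62 and 3.41 on the Vascepa arrays, against 3.95, 4.41 and 4.07 on the vehicle arrays. As in Cyp2b13, vehicle replicate 2 was the highest array in each of these 4 genes. For Cyp2b10 they were Luc7l, a relative of a yeast splicing factor (r = 0.93, rho 0.89), the predicted gene Gm5622 (r = 0.92, rho 1.0), Nt5dc2 (r = 0.92, rho 0.89) and Lig4, the DNA ligase of end joining (r = 0.92, rho 0.94). Lig4 read 4.25, 3.81 and 3.15 on the Vascepa arrays, against 3.48, 4.04 and 3.74 on the vehicle arrays, and like Cyp2b10 it overlapped between groups.

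Of the genes that lie beside the Cyp2b genes on chromosome 7, most lay slightly lower in Vascepa livers. The window, set after the data were seen, ran from 10 annotated genes before Cyp2b10 to 10 after Cyp2b19. It held 9 other tested genes, 8 lower and 1 higher, beside 60.1% lower over all tested genes. Their median was a log2 difference of −0.32, against −0.063 over all tested genes and −0.14 over the brighter genes. They ranged from −0.67 to 0.078. In 2 of them, Cyp2a22 and Axl, a receptor kinase that takes part in clearance of dead cells, all Vascepa arrays lay below all vehicle arrays, as they did in 5.11% of all tested genes. Cyp2a22 read 4.72, 4.20 and 4.18 on the Vascepa arrays, against 4.85, 5.40 and 4.86 on the vehicle arrays (−0.67 ± 0.24, SE). Cyp2a4, a steroid hydroxylase of female liver, read 6.81, 6.64 and 6.58 on the Vascepa arrays, against 6.53, 7.45 and 7.03 on the vehicle arrays (−0.32 ± 0.25, SE). Cyp2a5, a coumarin hydroxylase, differed by −0.15 ± 0.33 and Cyp2a12 by −0.13 ± 0.23 (SE), both with groups that overlapped. Without Vascepa replicate 3 Cyp2a12 stood at 0.078 and Cyp2a5 at 0.056, and without vehicle replicate 2 Cyp2a4 stood at −0.10. These genes were less far from 0 than Cyp2b9 and Cyp2b13, a difference that was not tested.

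Nuclear receptors and partners of CYP2B lay mostly lower in the mean, without a call. Of 34 listed genes 30 were tested and 0 passed in either direction (limma), with 25 lower, 5 higher and a median of −0.24. The share lower was 83.3%, beside 60.1% over all tested genes. In 3 of the 30 (10%), Nr1i2 and Ppp1r16a among them, all Vascepa arrays lay below all vehicle arrays, against 5.11% of all tested genes. The receptor PXR (Nr1i2) read 6.60, 6.54 and 5.96 on the Vascepa arrays, against 7.04, 7.18 and 7.02 on the vehicle arrays. Its groups did not overlap, and the log2 difference was −0.71 ± 0.22 (SE, limma adjusted p = 0.976). CAR (Nr1i3) read 6.74, 7.52 and 7.94 on the Vascepa arrays, against 6.94, 7.80 and 7.54 on the vehicle arrays, with overlapping groups and a difference of −0.024 ± 0.35 (SE). The sign of the CAR difference changed with the setting, from −0.35 to 0.30. CAR was lowest on Vascepa replicate 1, the array with the highest Cyp2b10. Its next lowest value, 6.94, was on vehicle replicate 1, the array with the lowest Cyp2b10, so the arrays showed no steady pairing of these genes.

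Rxra, the partner with which both receptors bind DNA, differed by −0.43 ± 0.47, and Hnf4a, a master regulator of hepatocyte genes, by −0.38 ± 0.35 (SE). Without Vascepa replicate 3 they stood at 0.049 in Rxra and −0.049 in Hnf4a, and without Vascepa replicate 1 at −0.96 in Rxra and −0.77 in Hnf4a. Ppp1r16a, a subunit of protein phosphatase 1, differed by −0.57 ± 0.25 and Cyb5b, a cytochrome b5, by −0.53 ± 0.28. Onecut1, which encodes HNF6, was the member farthest in the other direction, at 7.19, 6.47 and 6.15 on the Vascepa arrays, against 4.69, 5.22 and 7.34 on the vehicle arrays (0.85 ± 0.64, SE). Its vehicle arrays differed more among themselves than the groups did. The list lay lowest on Vascepa replicate 3, where its median was −0.63 from the vehicle mean, against −0.25 on Vascepa replicate 2 and 0.20 on Vascepa replicate 1. Without Vascepa replicate 3 the list's median was −0.053, with 18 of 30 lower, and without Vascepa replicate 1 it was −0.50.

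**Figure D4:**
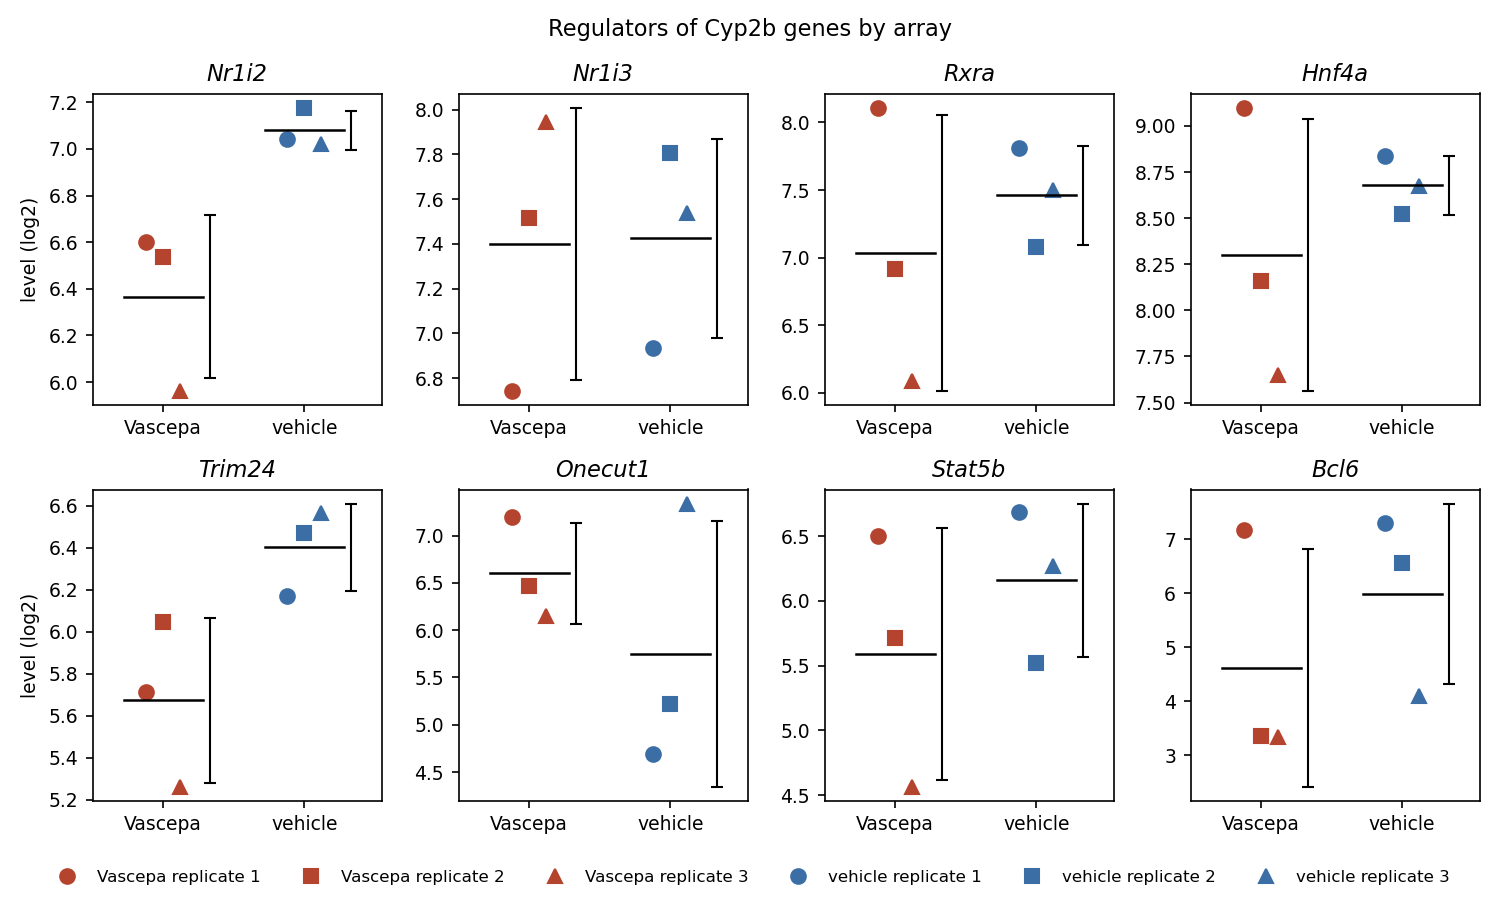
Levels (log2, y axis, a separate range in each panel) of receptors and regulatory factors in Vascepa (left, red) and vehicle (right, blue) livers. Symbols are single arrays, lines the group means and bars the SD (n = 3). Nr1i2 and Trim24 do not overlap between the groups, and Nr1i3, Rxra, Hnf4a, Onecut1, Stat5b and Bcl6 do.

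Other targets of CAR and PXR did not pass either. Of 40 listed genes 31 were tested, 0 passed in either direction (limma), 21 were lower and 10 higher, with a median of −0.16. Leaving out an array moved the median, to −0.057 (Vascepa replicate 3), −0.29 (Vascepa replicate 1) or −0.25 (Vascepa replicate 2). The share of 67.7% lower stood beside 60.1% over all tested genes. Cyp2c38 was the only tested member whose groups did not overlap, 3.23% of the list against the 5.11% of all genes. It read 5.93, 6.42 and 6.36 on the Vascepa arrays, against 7.18, 6.95 and 7.17 on the vehicle arrays (−0.87 ± 0.20, SE, limma adjusted p = 0.976). Gstm3 and Gstt3, glutathione transferases, differed by −0.81 ± 0.36 and −0.46 ± 0.21, and Cyp3a25, a P450 of the 3A subfamily, lay farthest the other way at 0.58 ± 0.30 (SE). Measured from the vehicle mean, the median of the targets was −0.51 for Vascepa replicate 3, −0.13 for replicate 2 and −0.012 for replicate 1.

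Of the growth hormone path that sets sex-biased liver expression, 21 of 24 listed genes were tested and 0 passed in either direction (limma), with 15 lower, 6 higher and a median of −0.14. The median rested on single arrays, at −0.053 without Vascepa replicate 3, −0.32 without Vascepa replicate 1 and −0.28 without vehicle replicate 2. Stat5b, the main transducer of growth hormone pulses, read 6.50, 5.71 and 4.57 on the Vascepa arrays, against 6.69, 5.52 and 6.27 on the vehicle arrays (−0.57 ± 0.50, SE). Its difference was −0.054 without Vascepa replicate 3, −1.02 without Vascepa replicate 1, −0.30 without vehicle replicate 1 and −0.89 without vehicle replicate 2. Bcl6, a repressor of many female-biased genes, was split within both groups, with Vascepa readings of 7.17, 3.37 and 3.34, against vehicle readings of 7.30, 6.56 and 4.11. Socs2, a feedback inhibitor induced by growth hormone, was also uneven, at 5.60, 2.51 and 4.56 on the Vascepa arrays, against 3.54, 3.86 and 5.04 on the vehicle arrays. Groups overlapped in these 3 genes. Cux2, a factor of female liver, differed by −0.067 ± 0.17, the receptor Ghr by −0.14 ± 0.19 and Igf1, the hormone made in response to it, by −0.14 ± 0.17 (SE).

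Trim24, a cofactor of nuclear receptors, and Tox, of the HMG-box family, had the smallest p of the growth hormone list together with Onecut1, which is also on it. Their groups did not overlap, so 2 of the 21 genes (9.52%) lay this way, against 5.11% of all tested genes. Trim24 read 5.71, 6.05 and 5.26 on the Vascepa arrays, against 6.17, 6.47 and 6.57 on the vehicle arrays (−0.73 ± 0.24, SE, limma adjusted p = 0.976). Tox differed by −0.36 ± 0.19 (SE). Both are also on the list of female-biased genes.

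Other female-biased genes lay on the same side as Cyp2b9 and Cyp2b13, again without a call. Of 49 listed genes, with the Cyp2b genes left out, 43 had a probe and 29 were tested, of which 0 passed in either direction (limma). Of the 29, 24 were lower and 5 higher, with a median of −0.38, and groups did not overlap downwards in 9, which is 31.0% against 5.11% of all tested genes. The list was written with earlier results known, and its most separated genes had been seen before, so this is no independent evidence of its direction. Dropping single arrays shifted the median of these 29 genes, between −0.56 (vehicle replicate 1 dropped) and −0.26 (vehicle replicate 3 dropped). The count of lower genes then ran from 21 (Vascepa replicate 1 dropped) to 25 (Vascepa replicate 3 dropped). Abcd2, which carries fatty acyl chains into peroxisomes, read 5.32, 5.63 and 5.84 on the Vascepa arrays, against 7.11, 6.66 and 7.18 on the vehicle arrays (−1.39 ± 0.23, SE). Atp6v0d2, a subunit of the vacuolar proton pump, read 2.53, 2.93 and 2.83 on the Vascepa arrays, against 4.44, 3.88 and 4.04 on the vehicle arrays (−1.36 ± 0.22, SE). It was dim in Vascepa livers, with a mean of 2.76 and replicate 1 under the filter level of 2.65. Cyp4a14, a fatty acid hydroxylase, read 9.60, 9.13 and 9.28 on the Vascepa arrays, against 10.28, 10.38 and 10.39 on the vehicle arrays (−1.01 ± 0.19, SE).

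The genes on the female-biased list did not all lie with Cyp2b9. Ppp1r3g, a glycogen-targeting subunit of a phosphatase, lay farthest the other way at 0.33 ± 0.21 (SE). In Tmprss4, a serine protease, named after its values were seen, all Vascepa arrays lay above all vehicle arrays (0.27 ± 0.18, SE), as in 3.13% of all tested genes. Tmprss4 was dim, with means of 2.85 in Vascepa and 2.58 in vehicle livers, beside the filter level of 2.65. Slc22a27 and Hao2, among the 24 lower, each had a Vascepa mean of 2.58, also under that level. Measured from the vehicle mean, the median of the tested female-biased genes was −0.50, −0.36 and −0.18 on Vascepa replicates 1, 2 and 3, against −0.16, −0.032 and 0.11 on vehicle replicates 1, 2 and 3. Cyp2b9 lay at −2.38, −1.49 and −0.86 on the same Vascepa arrays, with replicate 1 lowest in both.

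Male-biased genes were uneven. Of 42 listed genes 31 were tested and 0 passed in either direction (limma), with 8 lower, 23 higher and a median of 0.088. Mup21, of the major urinary proteins, differed by 0.70 ± 0.28 and Slco1a1, an anion transporter, by 0.69 ± 0.36 (SE). Hsd3b5, a steroid dehydrogenase, read 8.25, 8.45 and 5.87 on the Vascepa arrays, against 6.26, 5.93 and 5.87 on the vehicle arrays, with Vascepa replicate 3 at the level of the vehicle arrays. Cyp8b1, of bile acid synthesis, lay farthest the other way at −0.46 ± 0.27. The list's median lay at 0.35 and 0.24 above the mean of the vehicle arrays for Vascepa replicates 1 and 2 and at −0.31 for replicate 3, the array with the highest Cyp2b9 of its group. The number of these genes that were lower was 5 without Vascepa replicate 3, 14 without Vascepa replicate 1, 13 without vehicle replicate 3 and 15 with each array centred on its median. The list's median was 0.22 without Vascepa replicate 3, 0.058 without Vascepa replicate 1 and 0.16 without vehicle replicate 2.

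**Figure D5:**
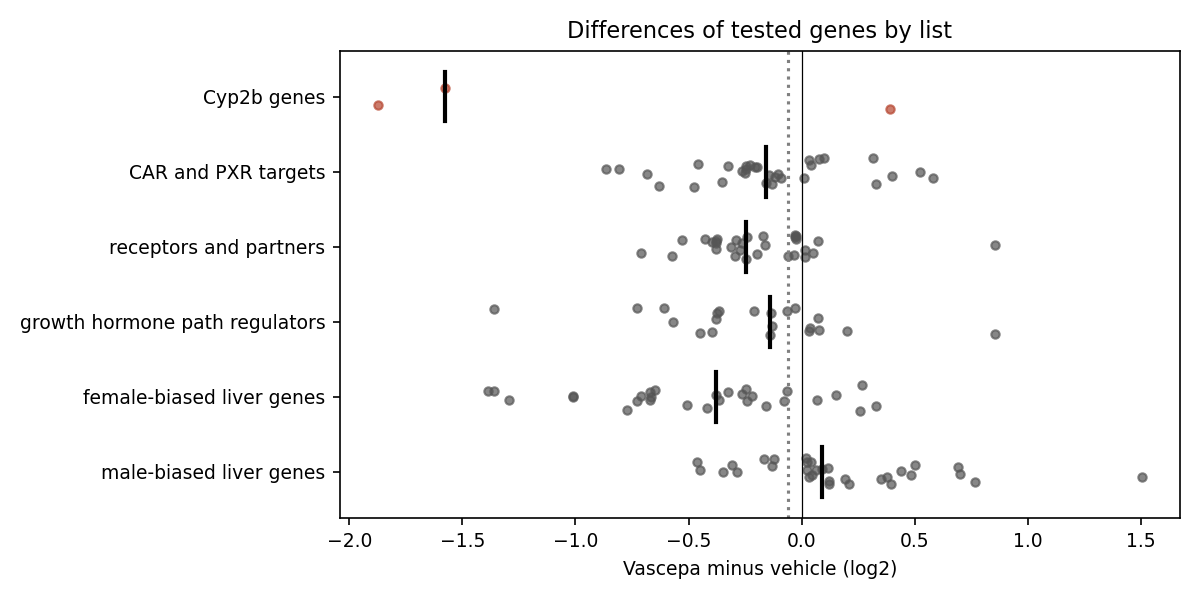
Difference of Vascepa minus vehicle livers (x axis, log2) for the Cyp2b genes (red) and for the tested genes of 5 lists (grey), with points spread vertically within a row for visibility. Vertical bars are medians and the dotted line the median of all tested genes, −0.063. Cyp2b9 and Cyp2b13 lie below every gene of the 5 lists, and Cyp2b10 lies above the median of each. The Cyp2b genes were chosen with this contrast known, so nothing is read from their place.

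Markers of other cells in the samples are given beside these results. Of 17 macrophage markers 15 were tested, with 12 lower (80%, beside 60.1% of all tested genes) and a median of −0.14. Their mean level was 5.78, 5.98 and 6.13 on Vascepa replicates 1, 2 and 3, against 6.22, 6.12 and 6.13 on the vehicle arrays. Measured from the vehicle mean, their median was −0.47, −0.13 and −0.19 on the same Vascepa arrays, so replicate 3 was not above replicate 2. By both measures the macrophage markers were lowest on Vascepa replicate 1, as Cyp2b9 was. The lymphocyte and neutrophil lists were also lowest on that array, with mean levels of 3.36 and 2.69. Vsig4, Cd68 and Timd4, markers of Kupffer cells and other macrophages, had the smallest p of the list and differed by −0.53 ± 0.18, −0.54 ± 0.20 and −0.54 ± 0.22 (SE). Their groups did not overlap, so 3 of 15 (20.0%) lay this way, against 5.11% of all tested genes. Lyz2, the lysozyme of macrophages and neutrophils, lay farthest the other way, at 6.32, 8.00 and 8.51 on the Vascepa arrays, against 7.24, 7.62 and 7.41 on the vehicle arrays (0.19 ± 0.50, SE), and its difference was −0.26 without Vascepa replicate 3. Of 16 hepatocyte markers 15 were tested, with 13 lower (86.7%) and a median of −0.16. In 2 of these 15 (13.3%) all Vascepa arrays lay below all vehicle arrays. So they did in 1 of 10 sinusoidal endothelium markers (10%) and 1 of 4 skeletal muscle markers (25%). In 1 other muscle marker, Acta1, and in 1 of 4 pancreatic acinar markers, Clps, all Vascepa arrays lay above all vehicle arrays. Of all tested genes 3.13% lay that way. Acta1 read 4.67, 4.75 and 4.42 on the Vascepa arrays, against 4.07, 4.12 and 4.06 on the vehicle arrays. Clps was dim, with a vehicle mean of 2.51. The mean level of the hepatocyte markers was 11.15, 11.03 and 10.66 on the Vascepa arrays, against 11.18, 11.00 and 11.09 on the vehicle arrays. The hepatocyte list was lowest on Vascepa replicate 3, where Cyp2b9 was highest in its group. Of 8 skeletal muscle markers 4 were tested, 3 of them higher, with a mean level of 3.67, 3.67 and 3.90 on the Vascepa arrays, against 3.37, 3.54 and 3.39 on the vehicle arrays, and of 13 pancreatic acinar markers 4 were tested, all higher in the mean. In the lists for sinusoidal endothelium, stellate cells, bile duct cells, lymphocytes and neutrophils the medians were −0.084, −0.056, 0.059, −0.13 and −0.26 over 10, 9, 5, 6 and 3 tested genes, and those for red blood cells and fat cells had 1 and 2 tested genes, with medians of −0.094 and 0.12. The part of these cells in the levels of the Cyp2b genes was not tested.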

How the data were processed

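The authors deposited log2 expression values, 1 per probe and array, produced by RMA in Affymetrix Expression Console per the submitters' processing notes. Their versions are not given here. The table held 41345 probes on 6 arrays, 3 per group, and the number of arrays limits the precision. Groups and replicate numbers came from the sample titles. The vehicle samples share the treatment text of the Vascepa samples and were told apart by title, source and treatment label. Batches could not be examined, since no scan dates or slides were used here.

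Of the probes, 23521 had 1 gene symbol and 1814 had several, which were not used to name a gene. For 23328 of the probes with 1 symbol the gene ID was found in a RefSeq table (GRCm38.p6), and its symbol was used, whether or not it differed. Where several probes had 1 gene, the one with the highest mean stood for it, and 13493 of 22180 genes had a mean of at least 2.65, the median over all probes. The functions lmFit and eBayes of limma 3.58.1, run in R 4.3.3, compared Vascepa with vehicle without covariates, with Benjamini-Hochberg adjustment over all tested genes and a threshold of 0.05. The procedure was tested on simulated data. Promoter windows were aligned with Biopython 1.88.

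The members, gene lists and tests were chosen with earlier results of these data known. In each list of the receptor, target, growth hormone and sex-bias genes, the 3 members with the smallest p and the one farthest from the list's direction were named, together with CAR, PXR, Rxra, Hnf4a, Stat5b, Bcl6, Cux2, Socs2, Ghr and Igf1, and for each Cyp2b gene the 4 genes with the highest r. Por, also on that list, was not analysed here. Genes named beyond this, the neighbours on chromosome 7, the motifs and the cell markers' examples, were chosen after values were seen. Alternatives were quantile normalization again, centring, array quality weights, the small nucleolar RNA covariate, a replicate block, other filters, a trended prior and leaving out each array.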

Additional observations from a re-analysis of the deposited data

How the results depend on the processing

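Cyp2b9 and Cyp2b13 kept their direction in all 11 alternatives each, and Cyp2b10 in 9 of 11. For Cyp2b9 and Cyp2b13, whose groups did not overlap, neither leaving out an array nor the replicate block could have turned it. Leaving out each array in turn gave −1.94 to −1.18 in Cyp2b9, −2.12 to −1.62 in Cyp2b13 and −0.24 to 0.91 in Cyp2b10, whose sign turned without Vascepa replicate 1 (−0.24) and without vehicle replicate 1 (−0.12). With array quality weights Cyp2b13 was −1.29, and 2555 genes were called lower and 1545 higher (limma). These weights did not converge and put 39.5 on Vascepa replicate 2, against at most 2.33 on any other array, so that fit compares mostly 1 Vascepa array with the vehicle arrays. With the small nucleolar RNA score as covariate 2 genes were called lower, Cyp2b9 and Cyp2b13, and 0 higher; since both were chosen with this known, it is no independent support. In all other settings limma called 0 genes in either direction. With the replicate block the differences were −1.58 in Cyp2b9, −1.87 in Cyp2b13 and 0.39 in Cyp2b10, as without it, and calls stayed at 0. Deviations of same-numbered arrays correlated at 0.61, 0.11 and −0.13 for replicates 1, 2 and 3, and those of differently numbered arrays at −0.63 to 0.57. Whether same-numbered samples share a batch or are paired was not tested. No other probe carried a member's symbol, so the choice of probe could not be varied. Repeating the named genes, the neighbours and the list counts under these settings was decided after seeing the data, and the number of male-biased genes that were lower was the list count that moved by more than 1.5 times. Among the other genes named with a difference or a likeness, the sign turned in at least 1 setting in Nr1i3, Rxra, Onecut1, Cux2, Ghr, Socs2, Lig4, Luc7l, Nt5dc2, Cyp2a5, Cyp2a12 and Lyz2. Several differences moved by more than 1.5 times without Vascepa replicate 3, and were then −0.34 in Ppp1r16a, −0.29 in Cyb5b, 0.36 in Cyp3a25, −0.053 in Igf1, −0.012 in Ghr, 0.16 in Ppp1r3g, −0.26 in Cyp8b1 and 1.09 in Slco1a1. Without vehicle replicate 1 the difference became −0.30 in Axl, 0.39 in Tmprss4 and 0.32 in Onecut1. With each array centred on its median, 71.1% of all tested genes were lower. Signal over background is unknown here and limits Cyp2b13 and Cyp2b10, which are dim.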
